A study of Homo sapiens with 12 samples.

Results

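Human chromosome 19 was described here between 5 and 54 Mb of the hg19 genome, from 6 lists of regions. A region was taken when it lay on chromosome 19, started above 5000000, ended below 54000000 and had its midpoint outside 22700000 to 29700000, the stretch around the centromere. The resulting segment of 42 Mb held 4796 of the 169273 regions in all lists. It held 39 BrdU regions of H1 after knockdown, 164 of H1 control, 253 of IMR90 and 381 of Saos-2, and 2527 H3K18ac regions of H1 and 1432 of IMR90. The rule left out further chromosome 19 regions at the ends of the chromosome (11 to 133 in the BrdU lists, 848 and 366 in the H3K18ac lists of H1 and IMR90) and around the centromere, where the Saos-2 list had 18 regions and the H1 knockdown, H1 control and IMR90 BrdU lists had 0, 2 and 1.

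BrdU sequencing marks DNA made while cells are given a thymidine analogue: the labelled strands are pulled down with an antibody against BrdU and sequenced. H3K18ac is an acetylation on the tail of histone H3 that is laid down by the paralogous acetyltransferases p300 and CBP, encoded by EP300 and CREBBP, and that sits at active promoters and enhancers. Chromosome 19 is known for its dense packing of genes and for long tandem arrays of KRAB zinc finger genes, whose protein products bind DNA and silence transposable elements, and whose own gene bodies carry repressive chromatin in many cell types.

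The H1 embryonic stem cells for BrdU sequencing received siRNAs against EP300 and CREBBP (H1 knockdown) or non-targeting siRNA (H1 control), in medium with 10 µM HA 1077 for both, and were collected after 72 h. IMR90 primary lung fibroblasts and Saos-2 osteosarcoma cells were labelled without siRNA. H3K18ac was immunoprecipitated with a custom antibody from 5000000 cells each of H1 and IMR90 without siRNA. Comparisons of H1 BrdU with the other lists therefore also differ in siRNA treatment and in HA 1077, which is listed for the H1 BrdU cells only. No H3K18ac list from knockdown cells was analysed here. Each of the 6 groups was 1 library, so no difference between conditions could be set against a spread of replicates and no p-values are given. Shares carry Wilson 95% intervals, which cover the counting error of regions and nothing else, and neighbouring regions are not independent of each other.

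The label of the chromosome was checked against a gene table. Chromosome 19 as a whole carried 1451 of 19122 autosomal protein-coding genes (7.59%) in RefSeq, rank 2 among the autosomes by number, while it held 2.10% of the 1 Mb bins of the autosomes that had a region in any list (occupied bins). It also carried 250 of 505 protein-coding genes with a ZNF symbol (49.5%). The table is of another genome build, so genes were not placed in the segment and regions are named by position.

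The segment was dense in DNA synthesis regions in every library and most so in Saos-2. It made up 1.55% of the occupied length of the autosomes, and it held 2.35% (1.72 to 3.19) of the autosomal regions of H1 knockdown, 3.31% (2.85 to 3.85) of H1 control, 4.43% (3.93 to 5.00) of IMR90 and 6.29% (5.70 to 6.93) of Saos-2. When lists were cut to their upper 50% by score, the H1 knockdown share was 4.01% (2.9 to 5.53), close to 4.32% (3.59 to 5.18) in H1 control. In regions per Mb, H1 knockdown had 0.929 in the segment against 0.609 on all other autosomal DNA, and H1 control had 3.90 against 1.80. IMR90 had 6.02 regions per Mb in the segment against 2.05 elsewhere, and Saos-2 had 9.07 against 2.13, a ratio of 4.26. The gene-rich chromosomes 16, 17, 20 and 22 lay between, with 2.84 regions per Mb in H1 control, 4.21 in IMR90 and 4.17 in Saos-2, and the gene-poor chromosomes 4, 13 and 18 were lowest among these, with 1.44, 1.20 and 1.51 in the same order. Without 2 stretches rich in Saos-2 regions, described further on, the remaining 35 Mb held 4.01% of the autosomal Saos-2 regions outside those stretches. The length share of 1.55% is that of the whole segment.

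The density of H3K18ac differed between the cell lines. H1 had 60.2 H3K18ac regions per Mb in the segment against 23.2 on other autosomal DNA, 2.59 times as many, and the segment held 3.92% (3.77 to 4.07) of its autosomal regions. IMR90 had 34.1 per Mb in the segment against 30.6 elsewhere, a ratio of 1.11, and a share of 1.72% (1.64 to 1.81). The H1 list, which is the shorter of both genome-wide, was thus the longer one on chromosome 19. This was not particular to chromosome 19. The gene-rich chromosomes 16, 17, 20 and 22 held 10607 H1 and 8595 IMR90 regions, or 41.3 and 33.4 per Mb. H1 regions of the segment also had higher scores than elsewhere: 739 of 2527 (29.2%, 27.5 to 31.0) lay in the upper 20% of the H1 list, against 19.8% of the other autosomal regions. In IMR90 this share was 20.3% in the segment and 20.2% elsewhere. The H1 regions covered 1.69% of the segment and 0.551% of the other occupied Mb, and the IMR90 regions covered 1.56% and 1.44%.

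**Figure D1:**
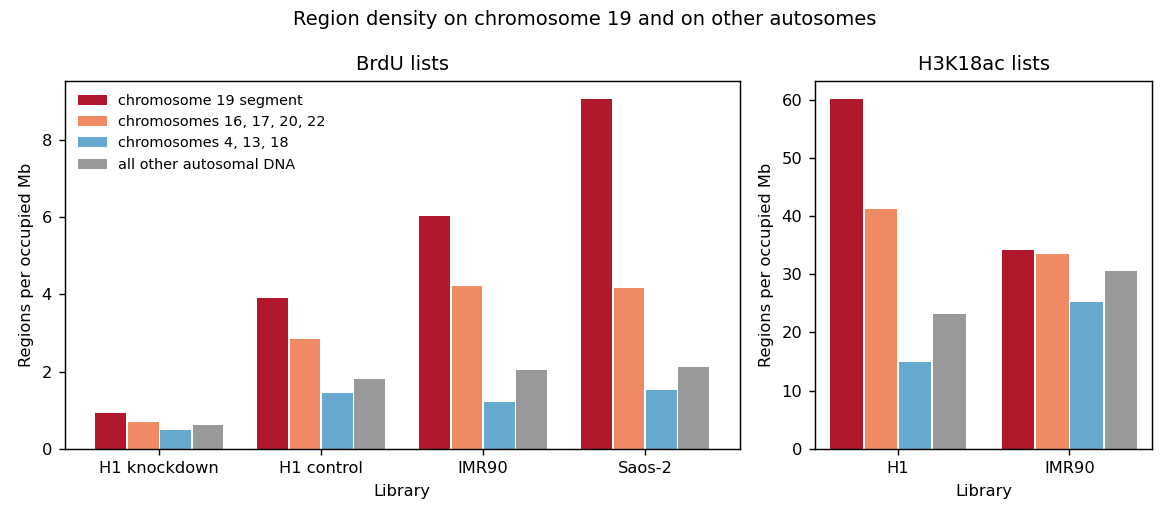
Regions per Mb (vertical axes, linear, from 0) in each library for the chromosome 19 segment, chromosomes 16, 17, 20 and 22, chromosomes 4, 13 and 18, and all other autosomal DNA; length is that of the segment (42 Mb) or the number of occupied 1 Mb bins, and there is 1 library per bar. The segment has the highest bar in all 6 libraries, from 0.929 in H1 knockdown to 9.07 in Saos-2 for BrdU, and the IMR90 H3K18ac bars lie closest together.

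Along the segment, the regions were spread unevenly, and the lists resembled each other to different degrees. Of the 41 whole 1 Mb bins, 23 held regions of all 4 BrdU lists, and 1 bin, 21 to 22 Mb, held none of any. The median bin held 1 region in H1 knockdown, 5 in H1 control, 6 in IMR90 and 9 in Saos-2. Bins without a region numbered 15, 9, 5 and 4 in that order of lists. H3K18ac regions were present in all 41 bins in both cell lines, with medians of 55 in H1 and 31 in IMR90. Across the 41 bins, Spearman's rho of the counts was 0.65 for H1 control and Saos-2, 0.53 for H1 control and IMR90, and 0.71 for IMR90 BrdU and H1 H3K18ac. It was lower for H1 knockdown, which had 1 region or none in most bins, with 0.38 against H1 control, 0.30 against IMR90 and 0.10 against Saos-2 BrdU. IMR90 H3K18ac gave 0.57 with H1 H3K18ac and 0.53 with IMR90 BrdU, but 0.24 with H1 control, 0.27 with Saos-2 and 0.13 with H1 knockdown BrdU. These are descriptions without a test, since the bins of all lists share base composition, mappability and gene density.

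The fullest bins were not the same ones in each line. H1 control peaked at 49 to 50 and at 51 to 52 Mb with 9 regions each, and at 13 to 14 Mb with 8, a value shared with other bins. IMR90 peaked at 5 to 6 Mb, where it had 20 regions while H1 knockdown had 0, H1 control 6 and Saos-2 9, and then at 47 to 48 Mb with 15 and at 8 to 9 Mb with 13. Saos-2 peaked at 41 to 42 Mb with 31 regions, where H1 knockdown had 1, H1 control 6 and IMR90 5. Its next bins were 51 to 52 Mb with 29 and 49 to 50 Mb with 24. H1 H3K18ac peaked at 49 to 50 Mb with 136 regions, 18 to 19 Mb with 132 and 17 to 18 Mb with 113. The fullest IMR90 H3K18ac bins were 43 to 44 Mb with 125, 13 to 14 Mb with 83 and 18 to 19 Mb with 78.

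Zinc finger gene clusters lie near 20000000 to 22700000 (cluster A, cut where the segment ends), 36500000 to 38500000 (cluster B) and 52000000 to 54000000 (cluster C); these borders are approximate and come from no annotation of this build. Together these 3 intervals span 6.70 Mb, or 16% of the segment, and BrdU regions were scarce in them. They held 2 of the 39 H1 knockdown regions (5.13%, 1.42 to 16.9), 2 of the 164 H1 control regions (1.22%, 0.335 to 4.34), 4 of the 253 IMR90 regions (1.58%, 0.617 to 3.99) and 27 of the 381 Saos-2 regions (7.09%, 4.92 to 10.1). For H1 control, IMR90 and Saos-2 the upper bound lay below the share of length, whereas the interval of H1 knockdown included it. The shares depend on the borders. Each interval was widened by 0.5 Mb on its sides, except where clusters A and C end at the segment's borders, to 20.7% of the segment. The shares were then 7.32% (4.23 to 12.4) in H1 control, 7.11% (4.55 to 11) in IMR90 and 12.1% in Saos-2.

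Cluster A was nearly empty. It held 0 H1 knockdown regions, which allows up to 7.69% of that list's segment regions, 0 H1 control regions, which allows up to 1.83%, 1 region in IMR90 and 1 in Saos-2. The IMR90 region lay at 20151401 to 20151500 with rank 246 of 253 by score in the segment, and the Saos-2 region at 20055801 to 20056000 with rank 259 of 381. Cluster B held 1, 1, 3 and 6 regions of H1 knockdown, H1 control, IMR90 and Saos-2. The highest-scoring IMR90 region there, at 36704801 to 36705000, overlapped the strongest H3K18ac region of cluster B in H1, at 36704801 to 36706800.

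Cluster C set Saos-2 apart in number. It held 1 H1 knockdown, 1 H1 control and 0 IMR90 regions, which allows up to 1.19% for IMR90, but 20 Saos-2 regions, or 10.0 per Mb, as many per Mb as the rest of the segment had in that line (10.0). None of these 20 overlapped an H1 control or IMR90 region. Outside the clusters, 16.9% (13.4 to 21.2) and 13.3% (10.1 to 17.2) of the Saos-2 regions did. The 2 values cannot be compared, because cluster C offered 1 H1 control region of 100 bp and 0 IMR90 regions to overlap. The 20 Saos-2 regions were short, at most 500 bp. The highest-scoring one, at 53605301 to 53605800, had rank 1770 of 6272 in the whole list. It overlapped an H1 H3K18ac region at 53605601 to 53606600.

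The acetylation mark was also sparse in the clusters. They held 194 of the 2527 H1 regions (7.68%, 6.70 to 8.78) and 82 of the 1432 IMR90 regions (5.73%, 4.64 to 7.05), both under the 16% of length. Cluster A had 40 H1 regions, or 14.8 per Mb, against 66.1 per Mb in the rest of the segment, and 9 IMR90 regions, or 3.33 per Mb, against 38.2. Clusters B and C were fuller, with 42.5 and 34.5 per Mb in H1 and 20.0 and 16.5 per Mb in IMR90. Cluster regions were not short: their mean length was 330 bp against 276 bp in the rest of the segment for H1, and 409 bp against 459 bp for IMR90.

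H1 carried the mark at all IMR90 regions of cluster A, and at part of those in clusters B and C. All 9 IMR90 regions of cluster A overlapped an H1 region (interval 70.1 to 100%), such as that at 22018401 to 22018900 inside the H1 region at 22018301 to 22018900. Over the 3 clusters 44 of 82 IMR90 regions did (53.7%, 42.9 to 64.0), against 483 of 1350 in the rest of the segment (35.8%, 33.3 to 38.4). In the other direction the shares were alike within counting error, with 45 of 194 H1 regions (23.2%) in the clusters and 493 of 2333 (21.1%) in the rest.

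**Figure D2:**
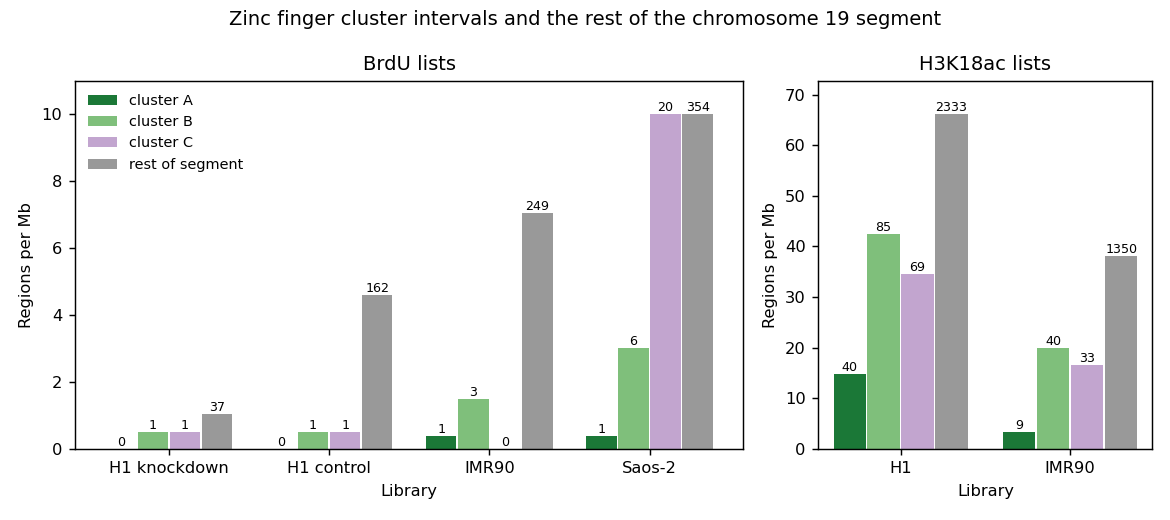
Regions per Mb (vertical axes, linear, from 0) in zinc finger clusters A, B and C and the rest of the segment for each library; the number above a bar is its count of regions. BrdU bars of the clusters are below the rest of the segment except cluster C in Saos-2. There 20 regions give 10.0 per Mb, level with the rest of the segment (10.0). All cluster bars of H3K18ac are below the rest.

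The comparison of knockdown with control asked how the replication map changed when EP300 and CREBBP were depleted. The segment held 39 knockdown and 164 control regions, a ratio of 0.238 (0.168 to 0.337), against 1623 and 4790 on other autosomal DNA, a ratio of 0.339 (0.320 to 0.358). The gene-rich chromosomes had a ratio of 0.243 (0.206 to 0.286) and the gene-poor ones 0.342 (0.289 to 0.406). In covered length the segment had 4.90 kb after knockdown and 35.6 kb in control, a ratio of 0.138, against 0.191 on other autosomal DNA. Below the centromere gap there were 13 knockdown and 73 control regions, and above it 26 and 91. The intervals of these ratios, 0.0995 to 0.319 and 0.185 to 0.440, overlapped.

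A small part of the control regions was found again. Knockdown regions overlapped 5 of the 164 control regions (3.05%, 1.31 to 6.94), against 3.11% of the control regions on other autosomal DNA, while from the knockdown side 5 of 39 (12.8%, 5.60 to 26.7) met a control region, against 9.37%. Both shares were within counting error of the background. The first of these control regions lay at 35788101 to 35790000, rank 6 of the whole control list by score, and was met by a knockdown region of 200 bp at 35789601 to 35789800. The second, at 42422501 to 42423300 with rank 76, kept 100 bp at 42422901 to 42423000. The others were 33741301 to 33741800 with 200 bp, 39411101 to 39411700 with 400 bp and 51313601 to 51313700 with 100 bp. Over the 5 regions the knockdown list covered 1000 of 3900 bp. All 5 also lay in Saos-2 regions, and the region at 42422501 was the one of them that IMR90 had too, although the IMR90 pieces there did not touch the knockdown window.

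Of the 33 control regions in the upper 20% of their list, 4 were overlapped by a knockdown region (12.1%, 4.82 to 27.3), against 11.1% of such regions on other autosomal DNA. The second highest of the segment, at 33996601 to 33997900 with rank 23 in the list, had no knockdown counterpart, nor did those at 11575401 to 11576000 (rank 133) and at 33949001 to 33949600 (rank 204). These named regions all had counterparts in IMR90 and Saos-2.

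Knockdown regions of the segment ranked high within their own list. Of the 39, 18 (46.2%, 31.6 to 61.4) lay in the upper 20% of the knockdown list, against 20.3% of the knockdown regions on other autosomal DNA, while for H1 control the shares were 20.1% and 20.4%. Of the 18, 5 overlapped a control region (27.8%, 12.5 to 50.9), against 41.8% elsewhere. In all, 31 of the 39 (79.5%, 64.5 to 89.2) were in no other BrdU list, against 84.1% elsewhere, and 29 of these 31 spanned a single window of 100 bp. Single windows were the rule in this list, with 82.1% of its regions in the segment and 85.6% elsewhere. Saos-2 regions met 8 of the 39 (20.5%, 10.8 to 35.5), against 13.3% on other autosomal DNA: the 5 that control had and 3 others, at 6587001 to 6587300, 30187301 to 30187400 and 33724501 to 33724600. None of the 39 overlapped an IMR90 region, which allows up to 7.69%, against 5.11% on other autosomal DNA. Looked at from the other lines, 8 of 381 Saos-2 regions (2.10%, 1.07 to 4.09) met a knockdown region, against 3.57%. Of the IMR90 regions 0 of 253 did, which allows up to 1.19%, against 1.5% (1.21 to 1.86) elsewhere. The background lay above that limit, but its interval overlapped the Wilson interval of 0 to 1.5%.

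The comparison across the 3 cell lines asked whether they replicated at the same places. From the side of H1 control, sharing in the segment was like that elsewhere: 31 of 164 regions (18.9%, 13.6 to 25.6) overlapped IMR90, against 21.0% of the control regions on other autosomal DNA, and 62 (37.8%, 30.7 to 45.4) overlapped Saos-2, against 34.4%. From the side of Saos-2, fewer regions were shared than elsewhere. Of the Saos-2 regions, 60 of 381 (15.7%, 12.4 to 19.7) overlapped H1 control, against 27.4%, and 48 (12.6%, 9.64 to 16.3) overlapped IMR90, against 25%. Of the IMR90 regions, 33 of 253 (13%, 9.44 to 17.8) overlapped H1 control, against 18.3% (17.3 to 19.4), intervals that overlap, and 50 (19.8%, 15.3 to 25.1) overlapped Saos-2, against 27.1%. With regions merged within 10 kb this last share was 24.8% (19.6 to 30.9), against 28.5% (27.2 to 29.8), and no longer stood apart. The gene-rich chromosomes did not show the low Saos-2 shares, with 25.9% in H1 control and 27.1% in IMR90. Scores moved with these shares: 10.8% of the Saos-2 and 14.2% of the IMR90 regions in the segment were in the upper 20% of their list, against 20.9% and 20.3% elsewhere. The part of score in the lower sharing was not tested.

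Merging the 3 control and untreated lists gave 674 BrdU loci in the segment. All 3 cell lines had 28 of them (4.15%, 2.89 to 5.94), against 7.11% of the loci on other autosomal DNA. Saos-2 alone had 298 loci (44.2%, 40.5 to 48.0), against 28.4% elsewhere, and H1 control alone had 94 (13.9%, 11.5 to 16.8), against 23.6%. IMR90 alone had 194 (28.8%), against 30.4%. The pairs were close to their shares elsewhere: H1 control and Saos-2 shared 33 (4.90%, against 5.34%), IMR90 and Saos-2 21 (3.12%, against 4.07%), and H1 control and IMR90 6 (0.890%, against 1.13%). All these shares are parts of the same 674 loci, so the many loci of Saos-2 alone lower the other shares by construction. Taken over the H1 control regions only, sharing was like that elsewhere, as given above.

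Of the 28 common loci, 14 lay in the 17.7 Mb below the centromere gap and 14 in the 24.3 Mb above it. The one of highest control score spanned 33996501 to 33997900, with a control region of 1300 bp. The next was at 42422301 to 42423400, the one common locus with a knockdown region. They were followed by 11575401 to 11576100, 33948801 to 33949700 and 49325001 to 49326100. The 5 highest-scoring IMR90 regions of the segment all belonged to common loci, at 11320001 to 11321300, 49172201 to 49173300, 18764201 to 18765500, 33949101 to 33949700 and 19065101 to 19066000. The strongest region of the segment in both H1 control and Saos-2, at 35788101 to 35790000 and 35787701 to 35790000, was not among them, as IMR90 had no region there.

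**Figure D3:**
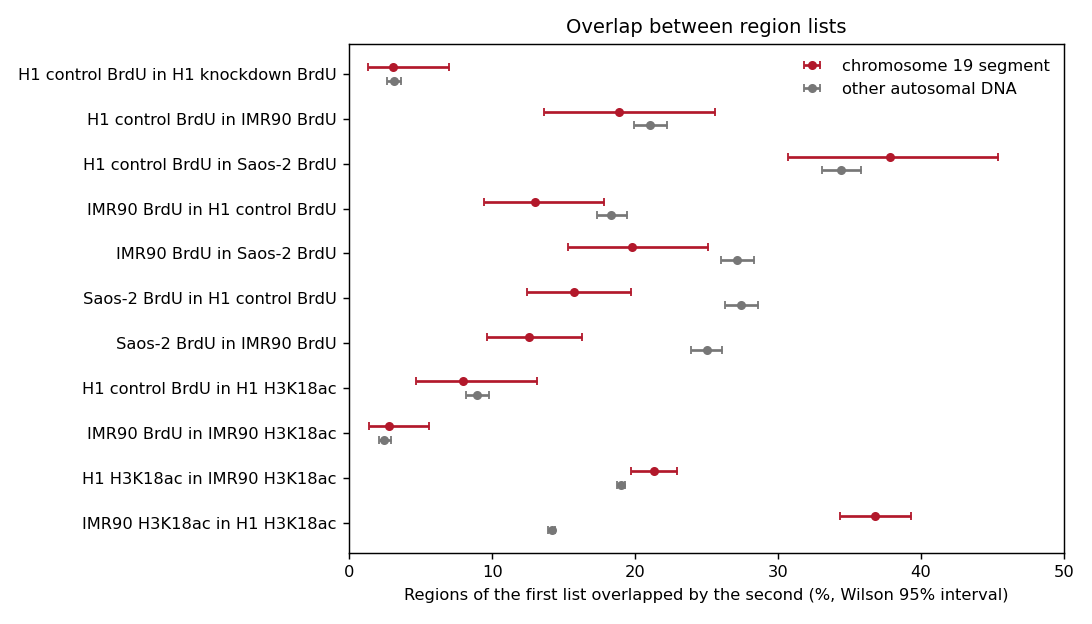
Percent of the regions of the first list that at least 1 bp of the second list overlaps (horizontal axis, linear, from 0), in the chromosome 19 segment and on other autosomal DNA; bars are Wilson 95% intervals, which cover counting error only. The intervals of the segment and the rest stand apart for Saos-2 in H1 control (15.7% and 27.4%) and for both directions between IMR90 and Saos-2. They also stand apart for both directions between the H3K18ac lists, most widely for IMR90 in H1 (36.8% and 14.2%). All shares are pooled over region lengths.

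Saos-2 regions were numerous in 2 stretches, from 41 to 43 and from 49 to 54 Mb, chosen here after the counts per bin had been seen, so that the values that follow describe the choice and support nothing. They held 144 of the 381 Saos-2 regions (37.8%), or 20.6 per Mb, against 6.77 per Mb in the rest of the segment. The numbers came from 5 of their 7 bins, which had 31, 20, 24, 20 and 29 regions, while the bins from 52 to 53 and from 53 to 54 Mb had 8 and 12, against a median bin of 9. In the other BrdU lists the stretches held 1.00 region per Mb of H1 knockdown, against 0.914 in the rest, 5.00 of H1 control, against 3.69, and 5.43 of IMR90, against 6.14. The Saos-2 regions of the stretches had a median length of 200 bp and a median score of 60, against 200 bp and 47 in the rest. They overlapped H1 control in 6.94%, against 21.1%, and IMR90 in 2.78%, against 18.6%. In the rest of the segment the shares in H1 control and IMR90 had upper bounds of 26.7% and 24%. They were lower than the 27.4% (26.3 to 28.6) and 25% (23.9 to 26.1) of other autosomal DNA, but both pairs of intervals overlapped.

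**Figure D4:**
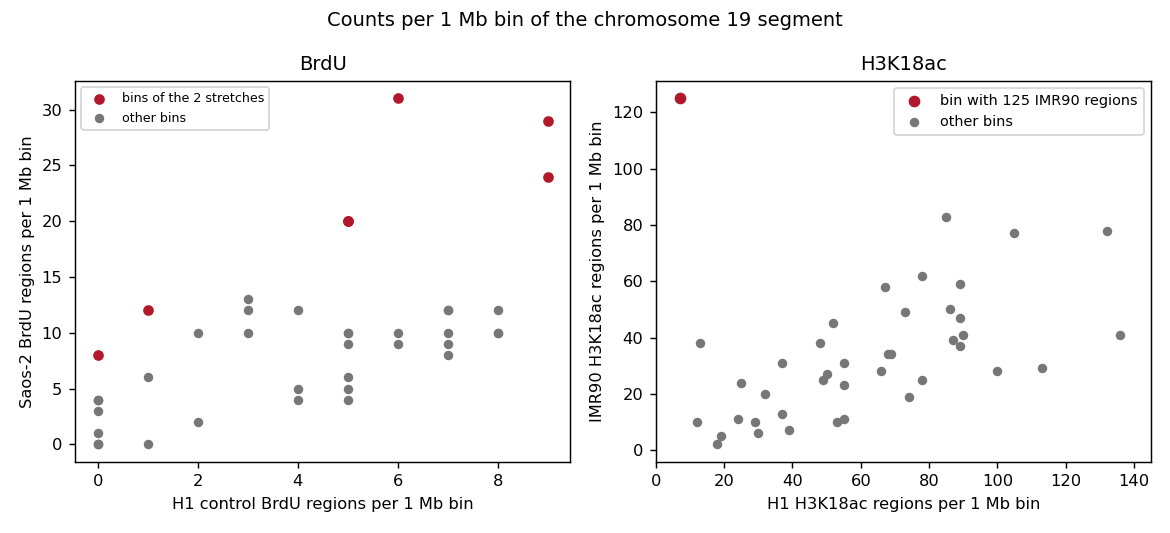
Counts of regions in the 41 whole 1 Mb bins of the segment (linear axes): Saos-2 BrdU against H1 control BrdU on the left, IMR90 H3K18ac against H1 H3K18ac on the right; each point is a bin, and bins of equal counts lie on top of each other. The 7 bins of the 2 stretches rich in Saos-2 regions have 8 to 31 Saos-2 regions at 9 or fewer H1 control regions, and the bin with 125 IMR90 H3K18ac regions has 7 in H1.

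The comparison of H3K18ac in H1 with IMR90 asked where the cell types shared the mark. Of the H1 regions in the segment, 538 of 2527 (21.3%, 19.7 to 22.9) overlapped IMR90, against 19% of the H1 regions on other autosomal DNA. Of the IMR90 regions, 527 of 1432 (36.8%, 34.3 to 39.3) overlapped H1, against 14.2% elsewhere, 22.9% on the gene-rich and 9.78% on the gene-poor chromosomes. The higher IMR90 share was present at every length: among single windows 28.5% against 8%, among regions of 200 to 400 bp 37.3% against 13.4%, among those of 500 to 900 bp 41.8% against 18.3%, and among those of 1000 bp or longer 48.7% against 24.1%. The denser H1 list moved with it, and its part in the result was not tested. Requiring that 50% of the region be overlapped gave 27.9% in the segment and 9.46% elsewhere.

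The 5 highest-scoring H3K18ac regions of each line were overlapped by the other line, although often over a small part of their length. Score rose with length in both lists (Spearman's rho in the segment 0.933 in H1 and 0.944 in IMR90, across regions), so that the highest scores belong to broad regions. The highest-scoring in H1, at 39892401 to 39895500 with rank 12 of its list, was overlapped over 2600 bp by IMR90, and that at 47613201 to 47616300 likewise over 2600 bp. Those at 50378901 to 50381100, 34662501 to 34664600 and 36704801 to 36706800 were overlapped over 800, 1400 and 900 bp. In IMR90 the broadest region, at 41724101 to 41731500, spanned 7400 bp and had rank 8 of 84471, while H1 covered 500 bp of it. It also held single BrdU windows of H1 control at 41729701 to 41729800 and of Saos-2 at 41728001 to 41728100. The next in IMR90, at 13165001 to 13168000, 13949501 to 13953500, 16187401 to 16189600 and 49375701 to 49378400, all had H1 counterparts, of 400, 600, 1700 and 1200 bp.

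A stretch near 43 Mb was marked in IMR90 and hardly in H1. The bin from 43 to 44 Mb held 125 IMR90 regions over 89.3 kb, and 7 H1 regions over 1.90 kb. Of the IMR90 regions 118 lay in the longest stretch of the bin without an H1 region, from 43047401 to 43912600. Only 1 of the 125 overlapped an H1 region. In IMR90, 30 regions of the bin were 1000 bp or longer, and the 3 of highest score lay at 43627501 to 43631500, 43646401 to 43652400 and 43686901 to 43692200. They had ranks 6, 8 and 9 among all IMR90 regions of the segment and no H1 overlap. BrdU regions were few there, with 0 in H1 knockdown, 0 in H1 control, 4 in IMR90 and 0 in Saos-2. Leaving this bin out gave 40.2% for the IMR90 regions that H1 overlaps. The bin from 31 to 32 Mb also had more IMR90 than H1 regions, 38 against 13 in H1.

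The last comparison asked whether the mark lay at replicating loci. For H1 control BrdU, 13 of 164 regions (7.93%, 4.69 to 13.1) met H1 H3K18ac, against 8.94% of those on other autosomal DNA, although the mark was 2.59 times as dense in the segment. The share was 3.66% when 50% of the region had to be overlapped, against 5.41% elsewhere, and 31.8% (24.8 to 39.6) with lists merged within 10 kb, against 24.4% (23.2 to 25.8), so that its side of the background depended on the merging while the intervals overlapped throughout. In bases, 5.06% of the control BrdU regions of the segment lay in the mark, which covered 1.69% of the segment, against 8.62% elsewhere. The 4 highest-scoring control regions of the segment were all among the 13, each with 100 or 200 bp of the mark inside, such as 33997301 to 33997500 within the region at 33996601 to 33997900. These 4 spanned 600 to 1900 bp, against a median of 100 bp for control regions of the segment. With both lists cut to their upper 50% by score, 9 of 109 control regions (8.26%, 4.4 to 15) met the mark, against 13.2% (11.9 to 14.6) elsewhere. Among the common loci 7 of 28 overlapped the mark (25%, 12.7 to 43.4), against 30.3% of such loci elsewhere. Among loci of H1 control and Saos-2 it was 7 of 33 (21.2%, 10.7 to 37.8), against 23.9%, and among those of H1 control alone 2 of 94 (2.13%, 0.585 to 7.43), against 2.81%. Median locus lengths in these classes were 700, 500 and 100 bp; length moved with these shares, and its part in them was not tested. Of the knockdown BrdU regions, 2 of 39 (5.13%, 1.42 to 16.9) were found in the mark of H1 cells without siRNA, against 1.79% elsewhere, at 6587001 to 6587300 and 19324801 to 19324900.

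The IMR90 mark was met by few IMR90 BrdU regions. Of the 253 BrdU regions, 7 (2.77%, 1.35 to 5.60) overlapped IMR90 H3K18ac, against 2.44% elsewhere, and 20 (7.91%, 5.18 to 11.9) overlapped the H1 mark, against 9.51%. Among the 7 were 47634301 to 47634600, which lay wholly inside an IMR90 and an H1 region, both at 47634201 to 47634800, and 8675001 to 8675100. None of the 28 common loci overlapped IMR90 H3K18ac, which allows up to 10.7%. The Saos-2 BrdU regions overlapped the IMR90 mark in 17 of 381 cases (4.46%, 2.80 to 7.03), against 2.32% elsewhere, and the H1 mark in 36 (9.45%, 6.90 to 12.8), against 12.9%. The IMR90 mark was met by 0 of 39 H1 knockdown regions, which allows up to 7.69%, against 2.22%, and by 5 of 164 H1 control regions (3.05%, 1.31 to 6.94), against 2.40%.

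Seen from the mark, very few acetylated regions lay at BrdU regions. Of the 2527 H1 H3K18ac regions of the segment, 2 met H1 knockdown BrdU (0.0791%), against 0.0468% of those on other autosomal DNA, and 13 met H1 control BrdU (0.514%, 0.301 to 0.878), against 0.731%. With IMR90 BrdU it was 20 (0.791%, 0.513 to 1.22), against 0.862%, and with Saos-2 BrdU 37 (1.46%, 1.06 to 2.01), against 1.27%. All 4 shares were within counting error of the background. For the 1432 IMR90 H3K18ac regions the shares lay above the background for Saos-2 and IMR90 BrdU. Saos-2 BrdU met 17 of them (1.19%, 0.743 to 1.89), against 0.165%, and IMR90 BrdU met 7 (0.489%, 0.237 to 1.01), against 0.163%. H1 control BrdU met 5 (0.349%, 0.149 to 0.815), against 0.140% (0.116 to 0.168), intervals that overlap, and H1 knockdown BrdU met 0, which allows up to 0.209%, against 0.0441%. BrdU density moved with these shares, since Saos-2 and IMR90 regions were 4.26 and 2.94 times as dense in the segment, and its part in them was not tested.

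BrdU regions lay nearer to the mark on chromosome 19 than elsewhere, where the mark was also sparser. The median distance to the nearest H1 H3K18ac region was 3100 bp for H1 knockdown, 3700 bp for H1 control, 3400 bp for IMR90 and 3300 bp for Saos-2 regions in the segment, against 9500, 5600, 4900 and 4900 bp on other autosomal DNA. Within 1 kb lay 13 of 39 knockdown regions (33.3%, 20.6 to 49), against 14.0% elsewhere, and 43 of 164 control regions (26.2%, 20.1 to 33.4), against 24.7%. To the nearest IMR90 H3K18ac region the medians were 20000, 12350, 20200 and 21800 bp in the same order of lists, against 25400, 26900, 25800 and 39850 bp. The part of the mark's density in these distances was not tested.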

How the data were processed

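The deposited files are 6 region lists, 1 for each pulled-down library; the 6 input libraries were not analysed here. Reads were aligned with Bowtie 0.12.7 to hg19, per the submitters' processing notes; for the region caller, its threshold and any use of the inputs, the method is not given in the sources used here. Region borders fall on multiples of 100 bp, and start and end both belong to the region. The score, a whole number per region deposited by the authors without a stated meaning, served here to order the regions of 1 list. No read counts were used, so the depth of the libraries is unknown, and absence from a list does not show absence of signal.

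Overlaps of at least 1 bp with any region of the whole other list were counted in Python 3.11.15 (pandas 2.3.3, numpy 2.4.6, scipy 1.17.1; figures, matplotlib 3.10.9), after the counting had been tested on simulated regions. Densities elsewhere were taken per 1 Mb autosomal bin with a region in any list. Regions were assigned to bins and intervals by midpoint. A count of 0 was given the limit that 3 regions would set. The named regions were the 5 of highest score in each list, the highest of each list in each zinc finger interval, control regions overlapped by knockdown regions, the 5 common loci of highest control score and the fullest and empty bins; the 3 IMR90 H3K18ac regions near 43 Mb, the bin from 31 to 32 Mb and further regions given as examples of a small count were added after their values had been seen. The segment, the intervals and the comparisons were chosen with earlier results of these data known. As no hg19 sequence or annotation was used here, planned counts at gene lists were not run and no sequence is shown; genes per chromosome came from RefSeq (GRCh38.p14). Alternatives were another overlap rule, stricter lists, merging, all of chromosome 19, wider intervals and covered length.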

Additional observations from a re-analysis of the deposited data

How the results depend on the processing

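Of 109 alternative values, 63 stayed within the interval of the reported value (for the highest count per bin, within 1.5 times) and 46 moved outside it; the cause was not tested unless the construction shows it. Requiring 50% overlap lowered, by construction, H1 control in knockdown to 1.22%, Saos-2 in H1 control to 9.97%, H1 in IMR90 H3K18ac to 16.3%, IMR90 in H1 H3K18ac to 27.9% and H1 control BrdU in H1 H3K18ac to 3.66%. The central window gave 9.97%, 16.5%, 27.9% and 4.27% for the last 4. In the upper 50% by score, H1 control in Saos-2 was 46.8% and in IMR90 27.5%, Saos-2 in H1 control 29.9% and H1 in IMR90 H3K18ac 19.2%; the segment held 4.01% of H1 knockdown, 4.32% of H1 control, 5.37% of Saos-2 and 4.7% of H1 H3K18ac regions, and the clusters 8.86% of H1 H3K18ac. Merging within 10 kb gave 21.4% for Saos-2 in H1 control, 37.5% for H1 in IMR90 H3K18ac, 70.1% for IMR90 in H1 H3K18ac, 31.8% for H1 control BrdU in H1 H3K18ac and 9.46% for IMR90 BrdU in IMR90 H3K18ac; segment shares became 5.66% (Saos-2), 2.94% (H1 H3K18ac) and 2.12% (IMR90 H3K18ac), and cluster shares 12.6% and 9.6% of H1 and IMR90 H3K18ac. On all of chromosome 19, H1 control in IMR90 was 26.6%, the chromosome held 4.93%, 6.36%, 8.78%, 5.31% and 2.18% of H1 control, IMR90 and Saos-2 BrdU and H1 and IMR90 H3K18ac, and the clusters 5.67% and 4.52% of H1 and IMR90 H3K18ac. By covered length the knockdown ratio was 0.138 and the cluster share of H1 H3K18ac 9.05%. Clusters widened by 0.5 Mb within the borders of the segment (20.7% of it) held 7.32%, 7.11%, 12.1%, 14.2% and 10.5% of H1 control, IMR90 and Saos-2 BrdU and H1 and IMR90 H3K18ac regions, all still under the share of length. Without the 2 stretches rich in Saos-2 regions, an alternative chosen after seeing the data, 21.1% of Saos-2 regions lay in H1 control. The rest of the segment then held 4.01% of the autosomal Saos-2 regions outside the stretches. Without the bin from 43 to 44 Mb, likewise chosen, 40.2% of IMR90 H3K18ac regions lay in H1. Under 50% overlap, the central window, the upper 50% and merging, IMR90 in H1 H3K18ac stayed higher in the segment than on other autosomal DNA (9.46% to 35.8%), and Saos-2 in H1 control stayed lower (19% to 47.5% elsewhere). IMR90 BrdU in Saos-2 stayed lower under the first 3 of these, but merged it was 24.8%, against 28.5% elsewhere, within counting error. No paired analysis was possible because each group has 1 library.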
